A study of Homo sapiens with 2 samples.

Results

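The clustered protocadherins are 53 protein-coding genes that stand side by side on chromosome 5, and this account describes where nucleosomes were mapped in and around them. The members were every GENCODE 44 protein-coding gene on chromosome 5 whose symbol starts with PCDHA, PCDHB or PCDHG, which gave 15 genes of the alpha cluster, 16 of the beta cluster and 22 of the gamma cluster, out of 19970 protein-coding genes. They were chosen by name and place, not by any measured value. All lie on the + strand of hg38, between chr5:140786140, the start of PCDHA1, and chr5:141512975, the end of the gamma genes. The cells were ARPE-19, an established human line of retinal pigment epithelium, grown without treatment in DMEM/F-12 with 20% serum and taken in interphase. Digestion lasted 5 min and used micrococcal nuclease, an enzyme that degrades linker DNA faster than DNA held on histones, and fragments of about 150 bp were sequenced (MNase-seq). The labels give 2 samples, batches 1 and 2 of the same cells, and these form 1 group without any contrasting condition. A single deposited list of 1-base positions, taken here as nucleosome positions, covers both, names no batch and gives no height. The values below therefore have no replicate check and no p-value, and every interval covers counting error only.

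Clustered protocadherins are cell-surface cadherins best known from neurons, where each cell transcribes its own small choice of them and the displayed combination lets a neuron tell its own branches from those of its neighbours. In the alpha and gamma clusters each member has its own promoter and its own large variable exon, which encodes the extracellular domain and the membrane-spanning segment, and splices to short constant exons shared by the whole cluster. A beta gene has its large exon only. Promoter choice is known to involve CTCF, a DNA-binding protein that anchors chromatin loops together with cohesin, and CTCF recognises sequences both in the promoters and, in most alpha genes, inside the variable exon. The last exons of the alpha and gamma clusters are called C-type, and they are known to follow a different, less random rule of expression. The files hold no measure of which members, if any, ARPE-19 cells transcribe.

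The sequences that set the members apart are shown first, because the positions are measured against them. Upstream of most variable exons lies a conserved element with the core CGCT. Within 500 bp upstream of the start codon, counted on either strand, the word of 10 bases shared by the largest number of members was TGATGTCGCT in the alpha cluster (9 of 15), GGTGGCGCTG in the beta cluster (13 of 16) and GCGCCGCTGT in the gamma cluster (10 of 22). In the same window of all 19970 protein-coding genes, these words occurred in 0.0751%, 0.426% and 0.21%. The words were picked for their share among members, and these genome shares include the members, so the contrast is a description. No member of one cluster carried the word of another. The median place of the word relative to the start codon was -195, -246 and -236.5 bp. Examples from the + strand of hg38 follow, with the shared word in capitals.
PCDHA1 chr5:140786086-140786115: attggccacaTGATGTCGCTgtacaccaca
PCDHA3 chr5:140800994-140801023: tttagccacaTGATGTCGCTgtccaccaca
PCDHA12 chr5:140875244-140875273: atcagtcacaTGATGTCGCTctacactcag
PCDHB3 chr5:141100394-141100423: gcgaacgcatGGTGGCGCTGttgactaaga
PCDHB4 chr5:141121724-141121753: caagacgcagGGTGGCGCTGcaggctaagt
PCDHB11 chr5:141199531-141199560: ggagacacttGGTGGCGCTGcaggataaca
PCDHGA7 chr5:141382651-141382680: aggactcacaGCGCCGCTGTtcaccaacca
PCDHGA9 chr5:141402716-141402745: aggactctgaGCGCCGCTGTtgatcaactc
PCDHGA10 chr5:141412933-141412962: aggactctgaGCGCCGCTGTtcacctacta
The capitals of all 3 clusters hold CGCT. The exact word was missing from 6 alpha, 3 beta and 12 gamma members, among them all 5 C-type genes and PCDHB1. An exact search says only that these letters are not in that window.

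The second set of sequences lies inside the coding part of the alpha exons. A match to the CTCF core consensus, given by name because its letters include ambiguity codes, was looked for on either strand within 1000 bp of the start codon. It was found without a mismatch in 4 of 15 alpha members and in none of the beta or gamma members, against 0.561% of all protein-coding genes. All 4 matches began 456 bp after the start codon on the + strand. At the aligned place, 456 bp after the start codon or 453 bp in PCDHA5 and PCDHA10, taken as the best match in a short stretch around it, 10 of the 13 members PCDHA1 to PCDHA13 had at most 1 mismatch. A match with at most 1 mismatch on the same strand as the gene occurred within 1000 bp of the start codon in 4.82% of all protein-coding genes. The aligned stretches are printed for all 13, with the 12 bases compared with the consensus in capitals.
PCDHA1 chr5:140786738-140786767: tcgcgttttCCGATAGAAGGAgctgctgat
PCDHA2 chr5:140795412-140795441: tctcggtttCCTCTAGAGGGAgcatctgat
PCDHA3 chr5:140801645-140801674: tctcggtttTCGCTAGAGGGCgcatcagat
PCDHA4 chr5:140807635-140807664: tctcggtttCCACTAGAGGGCgcctcggat
PCDHA5 chr5:140822220-140822249: tcgcggtttCCGCTAGAGGGCgcgtcggat
PCDHA6 chr5:140828539-140828568: tctgtgtttCCACTGGAGGGCgcgtccgat
PCDHA7 chr5:140834831-140834860: tctcggtttCCACTAGAGGGCgcgtccgat
PCDHA8 chr5:140841769-140841798: tctcggtttCCGCTAGAGGGCgcgtccgat
PCDHA9 chr5:140848943-140848972: tctcggtttCCACTAGAGGGCgcgtccgat
PCDHA10 chr5:140856493-140856522: tctcgatttCCACTAGAAGGCgcatctgat
PCDHA11 chr5:140869551-140869580: tcgcgttttCCACTAGAGGGAgcttctgat
PCDHA12 chr5:140875920-140875949: tctcattttCCTCTAGAGGGCgcttctgat
PCDHA13 chr5:140882716-140882745: actcgatttCCACTAGATGGCgcatccgat
PCDHA4, PCDHA7, PCDHA9 and PCDHA13 held the exact consensus, and PCDHA1, with 4 mismatches, was the farthest from it. CTCF binding was not measured in these cells, and a match is a description of letters.

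Across the whole region, from the start of PCDHA1 to the end of the gamma genes, 638 positions lay in 726.8 kb, or 0.878 per kb, where chromosomes 1-22 and X carried 0.904 per kb and chromosome 5 carried 0.982 per kb. The alpha cluster had 222 positions (0.981 per kb, exact 95% Poisson interval 0.857 to 1.12), the beta cluster 138 (0.697 per kb, 0.586 to 0.824) and the gamma cluster 147 (0.806 per kb, 0.681 to 0.947). The intervals of alpha and beta did not overlap. Of windows of 50 kb, the 13 in which a member starts held between 0.5 and 1.48 positions per kb with a median of 0.76, and the median of 58036 windows of the genome was 0.82. The lowest windows, both at 0.5 per kb, held the starts of 7 alpha members and of 4 beta members, and the highest held the start of PCDHAC2. On either side the chromosome was denser, with 1.47 positions per kb in the 1 Mb before the alpha cluster and 1.61 in the 1 Mb after the gamma cluster. The median distance between neighbours was 519 bp in the alpha cluster, 739 bp in beta and 891.5 bp in gamma, against 549 bp over the genome. The longest stretches without a position were 6224 bp in alpha, which holds the whole variable exon of PCDHA8, 9197 bp in beta, which holds that of PCDHB10, and 7510 bp in gamma, which holds that of PCDHGA11.

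**Figure D1:**
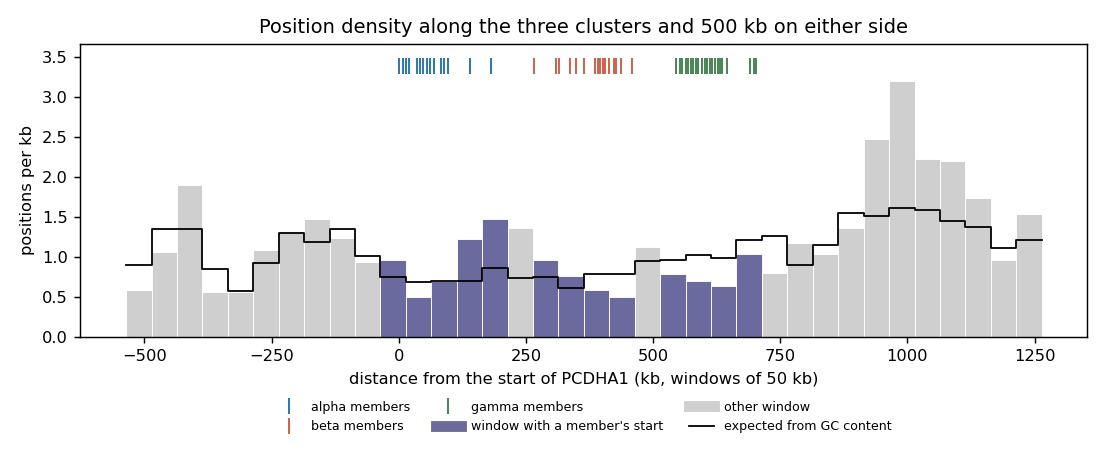
Positions per kb in windows of 50 kb (bars), against the distance from the start of PCDHA1 in kb, with the density expected from GC content as a line and the members' starts as ticks. The windows with a member's start run from 0.5 to 1.48 per kb, and the windows farther on, about 1000 kb after PCDHA1, reach 3.2 per kb.

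The variable exons are long, GC-rich and, for the genome, rich in CpG, and how empty of positions they looked depended on which of these was taken into account. The 53 exons covered 161.2 kb and held 102 positions, or 0.633 per kb (0.516 to 0.768). Their GC content was 51.9% and they held 4.74 CpG per 100 bp. GC content moves with the density of positions in this list, so an expected number was computed from the genome-wide density at each base's GC content in the surrounding 200 bp. From GC content alone 204.2 positions were expected, and the ratio of observed to expected was 0.50 (0.407 to 0.606). With both GC content and the number of CpG in the surrounding 200 bp, 118 positions were expected. The ratio was then 0.864 (0.705 to 1.05), an interval that includes 1. For the coding part of the exons alone, 77 positions gave 0.432 (0.341 to 0.540) from GC content. With CpG the coding part stood at 0.781 (0.616 to 0.976), an interval that lies below 1. The sequence between the variable exons is poor in CpG, and there the 2 expectations stayed close. In the alpha cluster the ratio between exons was 1.60 with either expectation, in beta 1.22 from GC content and 1.36 with CpG. In gamma it was 1.01 and 1.14. The expectation is genome-wide, and chromosome 5 as a whole stood at 1.20 from GC content (1.195 to 1.207). The 1 Mb before the alpha cluster and the 1 Mb after the gamma cluster stood at 1.30 and 1.23.

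Exon and intervening sequence differed less when counted per base than when set against GC content. In the alpha cluster, exons held 0.647 positions per kb (25 in 38.67 kb) and the sequence between them 0.879 per kb (101 in 114.9 kb), a log2 ratio of -0.44 (exact conditional 95% interval -1.14 to 0.20). It was -1.72 (-2.42 to -1.08) against GC content and -0.60 (-1.29 to 0.05) against GC content and CpG. In the beta cluster, 42 positions in 65.33 kb of exon and 96 in 132.6 kb between them gave -0.17 (-0.73 to 0.37) per base, -0.95 (-1.51 to -0.41) against GC content and -0.57 (-1.13 to -0.03) with CpG. In the gamma cluster, 35 positions in 57.21 kb and 70 in 85.82 kb gave -0.42 (-1.04 to 0.19), -1.32 (-1.95 to -0.72) and -0.67 (-1.30 to -0.06). In all 3 clusters the exons were thus below the intervening sequence at matched GC content, by a smaller amount once CpG was matched too, and per base no interval excluded 0. The exons also resemble one another: 78%, 74.8% and 88.1% of exon bases in alpha, beta and gamma began a word of 31 bases that occurs once in the genome. On such bases alone the log2 ratio per base was 0.02 in alpha, 0.18 in beta and -0.21 in gamma. The part of mapping in these values was not tested.

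**Figure D2:**
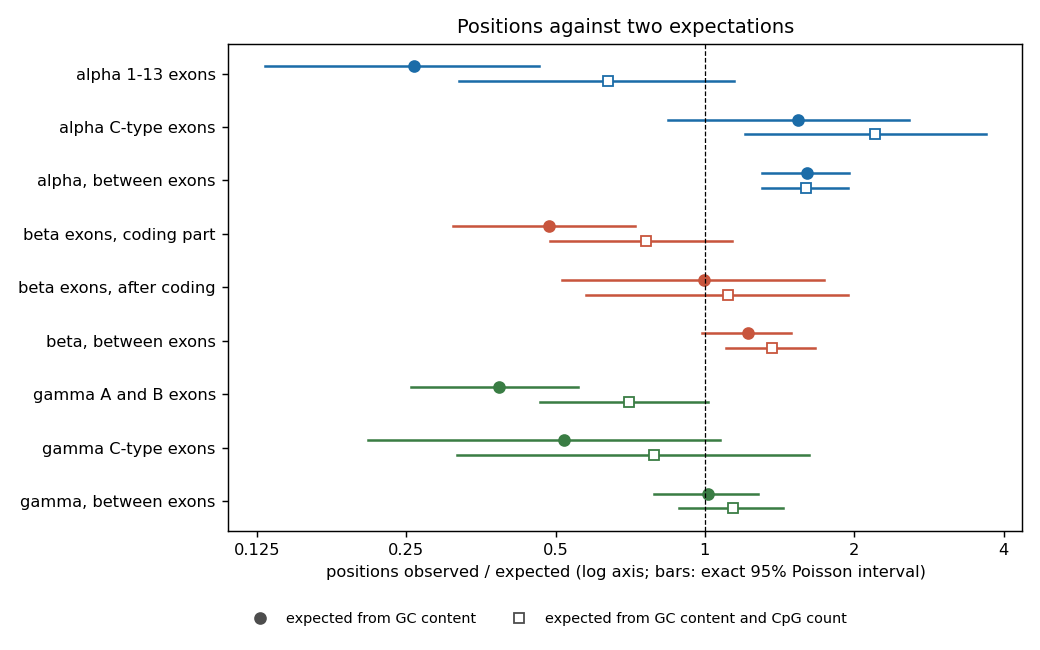
Positions observed divided by positions expected, on a log axis, for groups of variable exons and for the sequence between them. Circles use GC content and open squares GC content and CpG, with exact 95% Poisson intervals as bars. The exons of PCDHA1 to PCDHA13 stand at 0.259 with circles and 0.639 with squares, and the alpha C-type exons at 1.54 and 2.20.

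Inside the alpha cluster the density differed between the C-type exons, pooled, and the other exons. PCDHA1 to PCDHA13 held 11 positions in 32.78 kb of exon, or 0.336 per kb (0.168 to 0.60), and PCDHAC1 and PCDHAC2 held 14 in 5.88 kb, or 2.38 per kb (1.30 to 3.99). Pooled, the C-type exons were thus denser, and the intervals did not overlap. PCDHAC1 held 9 of the 14 positions. PCDHAC2 alone held 5, where 4.30 were expected from GC content. Its 1.75 per kb (0.568 to 4.09) had an interval that overlapped that of PCDHA1 to PCDHA13. Against GC content the ratios of PCDHA1 to PCDHA13 and of the pooled C-type exons were 0.259 (0.130 to 0.464) and 1.54 (0.842 to 2.58). With CpG they were 0.639 (0.319 to 1.14) and 2.20 (1.20 to 3.69), where the intervals still did not overlap. Merging positions closer than 100 bp took the C-type exons from 14 positions to 10, or 1.70 per kb (0.815 to 3.13), and left the other 11 as they were. The intervals then did not overlap per base or against GC content (C-type ratio 1.10, 0.527 to 2.02), but they did with CpG (1.57, 0.754 to 2.89), the expected numbers being those of unmerged positions. GC content was much alike, 56.6% and 57.2%, while CpG stood at 7.21 and 4.79 per 100 bp. The exons of PCDHAC1 and PCDHAC2 consist of unique words throughout, whereas 54.3 to 85% of the bases of the other alpha exons did.

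PCDHAC1 (ENSG00000248383.5, exon 1 at chr5:140926299-140929325) had 9 positions, the most of any member together with PCDHB1, where 4.79 were expected from GC content. They began 1208 bp after the start codon and ended at 2151 bp, with the others at 1400, 1470, 1559, 1723, 1873, 1902 and 1943 bp. The first 1200 bases of its coding sequence and its 594-bp leader held none. PCDHAC2 (ENSG00000243232.6, chr5:140966476-140969331) had 5, at 221 bp before the start codon and at 1058, 2034, 2194 and 2390 bp after it. Several of the PCDHAC1 positions lie closer together than the length of a nucleosome, and merging positions closer than 100 bp left 5 in PCDHAC1 and 5 in PCDHAC2. Without PCDHAC1 the log2 ratio of alpha exons to intervening sequence was -0.97 (-1.83 to -0.20), so that this 1 exon carried much of the alpha density.

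Of the other 13 alpha exons, PCDHA3 and PCDHA4 had 2 positions each, 7 had 1 and PCDHA5, PCDHA7, PCDHA8 and PCDHA9 had none. Among the 394 other protein-coding genes with a first exon of at least 2000 bp, 30.5% had none. A count of 0 is given here with the density that 3 counts would make, which in PCDHA5, PCDHA7 and PCDHA8 is 1.19, 1.21 and 1.19 per kb. PCDHA3 (ENSG00000255408.4, chr5:140801057-140803591) had its positions at 50 and 2238 bp after the start codon. The neighbours PCDHA6, PCDHA7, PCDHA8 and PCDHA9 were the alpha exons with the smallest share of unique words (56.5, 59.9, 58.2 and 54.3%), and 3 of these 4 had no position. PCDHA5, at 79%, had none either. Downstream of the last alpha exon, the stretch that leads to and holds the constant exons carried 73 positions in 43.02 kb (1.70 per kb), 1.77 times the number expected from GC content (1.39 to 2.23). The 39.03 kb between the alpha and beta clusters held 49 positions, 2.00 times the number expected (1.48 to 2.65). Chromosome 5 as a whole held 1.20 times the number expected from GC content. The low density of alpha exons did not extend to the sequence that follows them.

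The few positions inside the exons of PCDHA1 to PCDHA13 were not scattered evenly. Of the 11, 6 lay between 168 and 229 bp downstream of the middle of the CTCF-like word printed above, with a mean of 202.2 bp. They belonged to PCDHA2 (168 bp), PCDHA4 (221 bp), PCDHA6 (215 bp), PCDHA11 (190 bp), PCDHA12 (190 bp) and PCDHA13 (229 bp). No member had a position within 150 bp of the word on either side, and none had one 150 to 250 bp upstream. Over the 3.91 kb within 150 bp, this allows up to 0.767 per kb by the same rule of 3 counts. That limit is above the 0.336 per kb of these exons, so the absence does not set the place apart from them. Among genome matches with at most 1 mismatch, 12.5% had a position 150 to 250 bp upstream and 20.7% had one within 75 bp. Of the 10 members with at most 1 mismatch, 5 had a position 150 to 250 bp downstream (50%), against 12.3% of 162597 such matches in the genome. Without a mismatch the genome gave 15% of 11012 matches, and 2 of the 4 alpha members, PCDHA4 and PCDHA13, had one. PCDHA2 has 2 mismatches and still had its position, and 7 members had none in the window: PCDHA1, PCDHA3, PCDHA5, PCDHA8 and PCDHA10, and also PCDHA7 and PCDHA9, which hold the exact consensus.

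The window of 150 to 250 bp was drawn after these positions had been seen, so its count and the mean distance are descriptions. That choice favours the share of members over the genome share, so setting them side by side is no test of an excess. The genome share also covers matches in all sequence, not only in coding exons of like GC content. The 13 exons are related copies, and members share sequence here as well as the word. In the 151 bp around the 6 positions, PCDHA7 and PCDHA9 have no unique word and PCDHA6 and PCDHA8 have 29.8%, while the other 9 are unique throughout. Of those 9 members, 5 had the position, and of the 4 others only PCDHA6 did. GC content of that stretch was 44.4 to 49.7% in the 6 members with the position and 37.1 to 51.7% in the 7 without it. The word begins 456 or 453 bp after the start codon in each of these exons, and the 6 positions lie 630 to 691 bp after the start codon. Whether the positions follow the word or another feature of these copies was not tested.

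**Figure D3:**
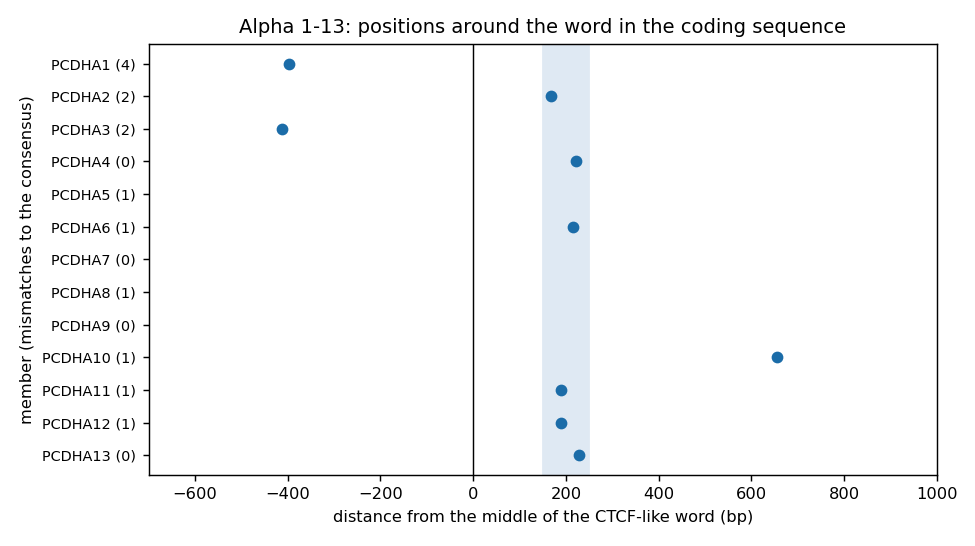
Positions in PCDHA1 to PCDHA13 against the distance in bp from the middle of the CTCF-like word, 1 row per member with its mismatches to the consensus in brackets and 150 to 250 bp downstream shaded. The shaded band holds 6 positions at 168 to 229 bp, and the 150 bp on either side of the word hold none.

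In the beta cluster the coding part of the exon and the part after it differed in GC content more than in density. The 16 exons, 2750 to 7973 bp long, held 24 positions in 38.21 kb of coding sequence (0.628 per kb, 0.402 to 0.935), 6 in 2.918 kb of leader (2.06 per kb, 0.755 to 4.48) and 12 in 24.19 kb after the coding sequence (0.496 per kb, 0.256 to 0.866). GC content was 54.9%, 48.2% and 34.3%. Against GC content the ratios were 0.486 (0.311 to 0.723) for coding sequence, 1.24 (0.454 to 2.69) for leaders and 0.996 (0.515 to 1.74) after the coding sequence. With CpG the coding ratio was 0.761 (0.488 to 1.13), whose interval includes 1. The leaders stood highest per base, on 6 positions.

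PCDHB1 (ENSG00000171815.6, chr5:141051374-141059346), which lies apart at the 5′ end of the cluster, had 9 positions, 4 in its coding sequence at 241, 1282, 1962 and 2372 bp and 5 after it. Its exon is the longest of all members, and per kb it held 1.13. PCDHB3 (ENSG00000113205.5, chr5:141100473-141103827) had 5 positions, at -12, 229, 604, 2480 and 2525 bp from the start codon, or 1.49 per kb. PCDHB2 (ENSG00000112852.7, chr5:141094615-141098703) had 3, at -3, 655 and 732 bp. At the low end, PCDHB10 (ENSG00000120324.9, chr5:141192353-141195647) had none where 3.24 were expected from GC content, PCDHB16 (ENSG00000272674.4, chr5:141182387-141186226) had 1 at -34 bp, and PCDHB9 (ENSG00000177839.7, chr5:141187161-141191541) had 1 at 3087 bp, after its coding sequence. PCDHB11 also had 1, after its coding sequence, and is outside these 3 only because ties follow chromosome order. Of their bases, 58.5% in PCDHB10, 77.5% in PCDHB16 and 63.2% in PCDHB9 begin a unique word, where the median of the cluster is 78%.

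The gamma exons were the lowest against either expectation when each cluster is taken whole, 0.405 (0.282 to 0.563) from GC content and 0.717 (0.50 to 0.998) with CpG. No gamma exon had more positions than GC content alone predicted, since all 22 were below, as were 79.9% of the 394 other first exons of at least 2000 bp in protein-coding genes. The genes alternate between an A and a B kind. The 12 PCDHGA exons held 20 positions in 31.36 kb (0.638 per kb, 0.390 to 0.985) and the 7 PCDHGB exons 8 in 18.06 kb (0.443 per kb, 0.191 to 0.873), whose intervals overlap widely. The 3 C-type exons held 7 in 7.787 kb (0.899 per kb, 0.361 to 1.85), so the contrast of the alpha C-type exons with their cluster was not repeated beyond counting error.

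PCDHGA9 (ENSG00000261934.3, chr5:141402778-141405376) had 4 positions, at 1020, 1055, 1718 and 1906 bp after the start codon. PCDHGA7 (ENSG00000253537.3, chr5:141382742-141385323) had 3, at -78, 1337 and 1519 bp, and PCDHGC3 (ENSG00000240184.7, chr5:141475966-141478546) had 3, at -11, 13 and 605 bp. PCDHGC4 (ENSG00000242419.6, chr5:141485030-141487615) had 2, at 1417 and 2219 bp, and PCDHGC5 (ENSG00000240764.4, chr5:141489081-141491700) had 2, at -14 and 1752 bp. PCDHGB3 (ENSG00000262209.3, chr5:141370242-141372809) and PCDHGA11 (ENSG00000253873.6, chr5:141421051-141423660) had none, where 3.87 and 3.94 were expected from GC content, although 98.4% and 94.9% of their bases begin a unique word. PCDHGA2 (ENSG00000081853.15, chr5:141338760-141341395) had 1, at 121 bp. The sequence that leads to and holds the gamma constant exons carried 28 positions in 21.27 kb, 0.858 times the number expected from GC content (0.570 to 1.24), below the corresponding stretch of the alpha cluster at 1.77.

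**Figure D4:**
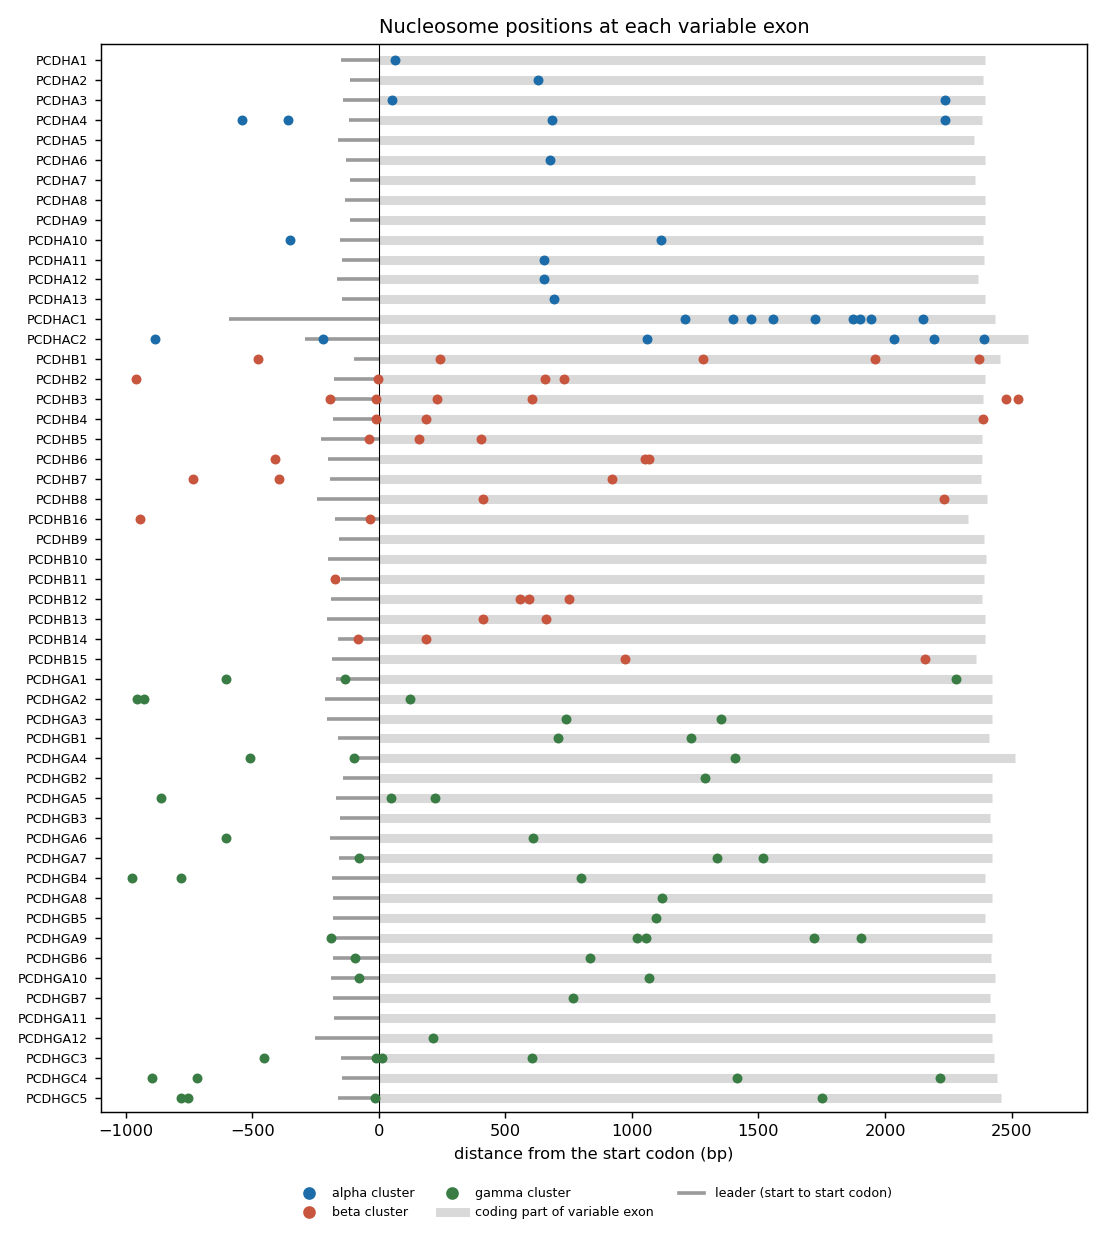
Every position from 1000 bp upstream to past the end of the coding sequence, 1 row per member in order along the chromosome, against the distance from the start codon in bp. Grey bars are the coding part of the variable exon and thin bars the leader, and PCDHAC1 stands out with 9 points, all between 1208 and 2151 bp.

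At the transcript starts the members of all 3 clusters pooled had positions about as often as other genes. From 200 bp upstream to 50 bp downstream of the start, 6 of 53 members had a position (11.3%), against 14.1% of 19970 protein-coding genes. Between 100 and 200 bp downstream, where the first nucleosome of a transcribed gene is usually placed, 9 of 53 had one (17%), against 16.1%. These were 1 of 15 alpha, 5 of 16 beta and 3 of 22 gamma members. By cluster, the start window held 1 position in alpha, 2 in beta and 3 in gamma. The density there was 0.267, 0.5 and 0.546 per kb, and the log2 ratio to the rest of the exon was -1.31 (-6.67 to 1.31), -0.38 (-3.47 to 1.56) and -0.15 (-2.50 to 1.52), all with intervals that include 0. In the 1000 bp upstream, alpha members had 5 positions in 13.27 kb, beta members 9 in 15.66 kb and gamma members 15 in 18.65 kb.

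Around the start codon, which lies a median of 171 bp after the transcript start, the clusters differed more. From 200 bp before to 50 bp after it, no alpha member had a position, whereas 7 of 16 beta members (43.8%) and 9 of 22 gamma members (40.9%) did. The share of all protein-coding genes was 17.5%. That share takes the start codon at any distance from the transcript start, so it does not measure the same place in every gene. The absence in alpha rests on 3.75 kb and allows up to 0.8 per kb, again by 3 counts. That limit is above the 0.647 per kb of the alpha exons as a whole. The absence therefore does not show fewer positions here than in the alpha exons. The 8 beta positions lay between -195 and -3 bp with a median of -36 bp, in PCDHB2, PCDHB3, PCDHB4, PCDHB5, PCDHB16, PCDHB11 and PCDHB14. The 10 gamma positions lay between -189 and 48 bp with a median of -79 bp, in PCDHGA1, PCDHGA4, PCDHGA5, PCDHGA7, PCDHGA9, PCDHGB6, PCDHGA10, PCDHGC3 and PCDHGC5. Relative to the rest of the exon, the window at the start codon had a log2 ratio of 1.78 (0.46 to 2.91) in beta and 1.82 (0.61 to 2.91) in gamma, where the window at the transcript start had given values near or below 0. All but 2 of the beta and gamma positions in this window, in PCDHGA5 and PCDHGC3, lie before the coding sequence. The log2 ratios of this window are per base, and no GC or CpG expectation was applied to it. Against GC content, the leaders as a whole stood at 1.24 (0.454 to 2.69) in beta and 0.916 (0.336 to 1.99) in gamma. Within 75 bp of the word itself, positions were found in PCDHB3 and PCDHB11, in PCDHGA9 and in no alpha member.

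**Figure D5:**
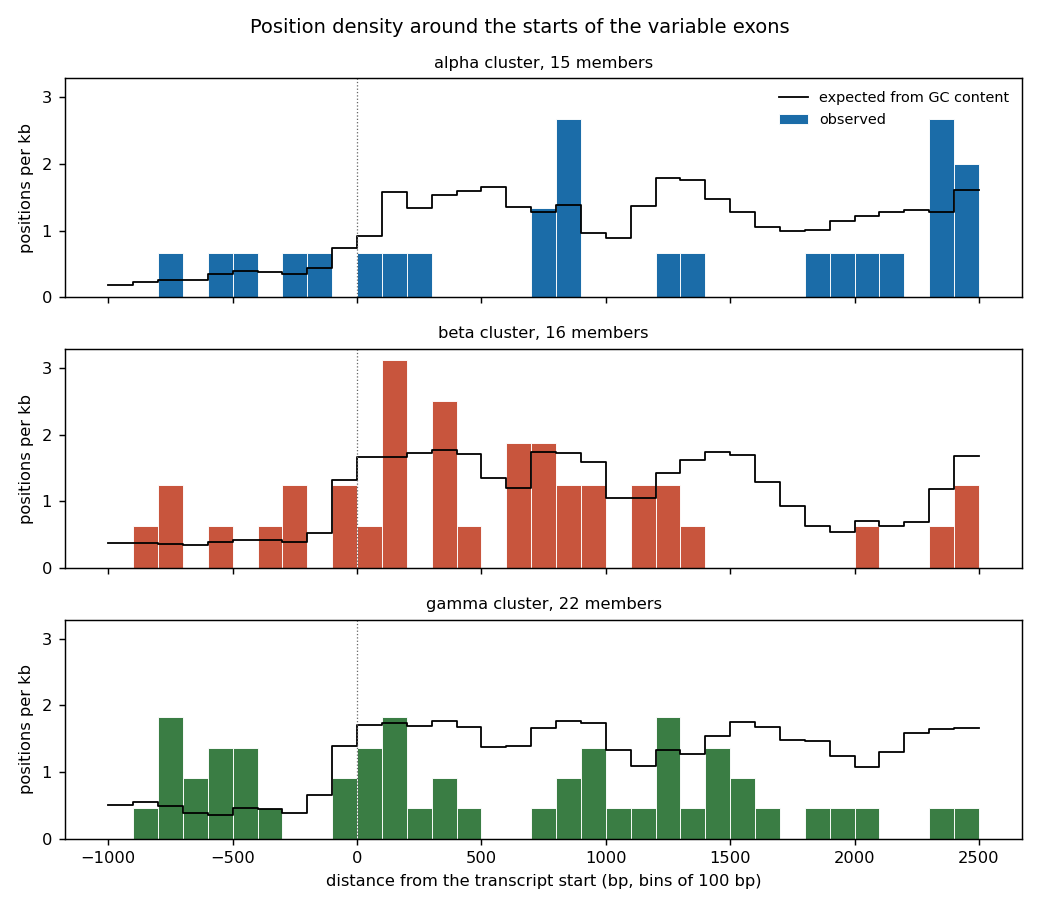
Positions per kb in bins of 100 bp from 1000 bp upstream to 2500 bp downstream of the transcript start, for each cluster, with the density expected from GC content as a line. The beta members peak at 3.13 per kb between 100 and 200 bp, on 5 positions, and the alpha members at 2.67 per kb between 800 and 900 bp and between 2300 and 2400 bp, on 4 positions each.

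Members of a cluster are related in sequence to differing degrees, so positions can be compared by their distance from the start codon. Counting a position as shared when another member of the cluster had one within 20 bp of the same distance, 9 of 24 coding positions were shared in alpha, 11 of 24 in beta and 10 of 29 in gamma. An even spread at the same density would give 6.65, 7.43 and 10.7. When PCDHAC1 and PCDHAC2 were left out, a choice made after the values were seen, 9 of the 11 alpha positions were shared, where an even spread gives 1.68. The gamma count was thus near an even spread and the alpha count, without the C-type exons, above it. No p-value is given, since the members share their sequence and are not replicates.

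In 2 pairs of members a coding position fell at exactly the same base. PCDHA11 and PCDHA12 both had one 652 bp after the start codon, and PCDHB8 and PCDHB13 both had one at 411 bp. The 150 bases around each position are printed from the + strand of hg38, with the bases that differ within a pair in capitals, and the position is the 76th base.
PCDHA11 chr5:140869681-140869830: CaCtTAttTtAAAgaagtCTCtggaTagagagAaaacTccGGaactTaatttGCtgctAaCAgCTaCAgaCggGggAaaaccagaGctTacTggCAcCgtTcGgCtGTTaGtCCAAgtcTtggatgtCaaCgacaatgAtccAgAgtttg
PCDHA12 chr5:140876050-140876199: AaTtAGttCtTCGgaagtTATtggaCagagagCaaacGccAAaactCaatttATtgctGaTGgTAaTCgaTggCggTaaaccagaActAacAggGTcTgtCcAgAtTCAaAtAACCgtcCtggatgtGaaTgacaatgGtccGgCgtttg
PCDHB8 chr5:141178371-141178520: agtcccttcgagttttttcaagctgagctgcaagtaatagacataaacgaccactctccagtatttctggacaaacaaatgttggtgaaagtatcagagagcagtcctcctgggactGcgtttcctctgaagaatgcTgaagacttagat
PCDHB13 chr5:141214460-141214609: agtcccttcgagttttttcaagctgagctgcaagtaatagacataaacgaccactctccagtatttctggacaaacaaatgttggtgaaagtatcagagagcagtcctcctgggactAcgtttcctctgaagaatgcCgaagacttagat
The alpha pair is 65.3% identical over these bases, with 52 differences, and all 150 words of 31 bases starting there are unique in each. The beta pair is 98.7% identical with 2 differences, and 63 of the 150 words are unique in each. Which of the 2 beta copies the reads came from was not tested. The alpha pair, with unique words throughout, does not have that limit.

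Finally, the members were set beside genes of like build. The 394 other long first exons held 881 positions, or 0.632 per kb (0.591 to 0.675), and the members held 0.633 per kb, a log2 ratio of 0.00 (-0.31 to 0.30). Against GC content the ratios of observed to expected were 0.50 for members and 0.591 for the others, a log2 ratio of -0.24 (-0.55 to 0.05). With CpG added the log2 ratio was 0.25 (-0.06 to 0.55), of opposite sign, and both intervals include 0. By member, 7 of 53 exons had no position (13.2%), against 30.5% of the 394, and 49 of 53 held fewer positions than GC content predicted (92.5%), against 79.9%. These differences between shares were not tested, because the members share sequence and are not independent. The 4 exons above their GC expectation were PCDHAC1, PCDHAC2, PCDHB1 and PCDHB3. Of the 12 nonclustered protocadherins, which are related single genes elsewhere, the largest coding exons held 21 positions in 29.51 kb (0.712 per kb, 0.441 to 1.09), 0.512 times the number expected from GC content. PCDH12, an endothelial protocadherin also on chromosome 5, held 10 of the 21. PCDH10, PCDH11X, PCDH15, PCDH17 and PCDH8 held none, where 4.15, 2.77, 0.734, 4.09 and 1.55 were expected from GC content. The PCDH15 exon has only 549 bp, and those of PCDH11X and PCDH15 are not in the first exon. None of 12 genes for factors that act on these clusters, among them CTCF and the cohesin subunits RAD21 and SMC3, had a position in its start window, where the share of all protein-coding genes is 14.1%. Between 100 and 200 bp downstream, CTCF and SMC3 had 1 each, where that share is 16.1%.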

How the data were processed

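The data are 1 list of positions deposited by the authors for 2 batches of interphase ARPE-19 cells. Each row gives a chromosome and a single base on hg38, per the file headers, with no height, score or sample, so neither depth nor the spread between batches is known. The submitters' processing notes name Bowtie2. The caller, its thresholds and the pooling of batches are not given in the sources used here. Because reads in near-identical exons cannot always be placed, positions were also counted on bases whose word of 31 bases is unique.

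Distinct positions on chromosomes 1-22 and X were counted per determined base. Each gene had 1 transcript, MANE Select or else canonical, and the variable exon was its first exon. The expected number used the density of each base's GC bin (2% wide, 200 bp around the base), or of its GC bin and CpG count. Poisson and conditional binomial 95% intervals were exact. The computation of the GC expectation was tested on positions simulated from the same GC curve, which checks the arithmetic only. Members named are, in each cluster, the 3 with most and the 3 with fewest exon positions, plus the C-type genes. Ties, which were common, were broken by chromosome order. In gamma, 9 members had 1 position and PCDHGA2 is named for its place. Others are named only within a count. Members and lists were chosen with earlier results of these data known. Alternatives changed the expectation, window, anchor, merging within 100 bp, unique words and members. Work used Python 3.11.15, numpy 2.4.6, scipy 1.17.1, pandas 2.3.3, numba 0.67.0 and matplotlib 3.10.9.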

Additional observations from a re-analysis of the deposited data

How the results depend on the processing

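Across 11 results and 88 alternatives, 67 values stayed within the limits set around the reported one and 21 moved outside them. For the log2 ratios the limits were the counting interval. The counts of shared distances and of positions by the CTCF-like word have no interval and were judged by the size of the change. For exons against the sequence between them (log2 ratio), the alpha value of -0.44 became -1.72 with the GC expectation, -1.58 with GC over 1000 bp, -1.70 with the GC curve of chromosome 5, -1.49 with GC on unique bases and -2.81 with GC and without C-type members. The beta value of -0.17 became -0.95, -0.89, -0.93 and -0.79 in the first 4 of these, and -1.33 for the coding part with GC. The gamma value of -0.42 became -1.32, -1.18, -1.31, -1.40 and, without C-type members, -1.70. Adding CpG to GC, a step chosen after seeing the data, brought these to -0.60, -0.57 and -0.67. Leaving out each member in turn gave -0.97 (without PCDHAC1) to -0.35 in alpha, -0.33 to -0.10 in beta and -0.52 to -0.35 in gamma. With the start codon as the anchor, the start window moved from -0.38 to 1.78 (0.46 to 2.91) in beta. In gamma it moved from -0.15 to 1.82 (0.61 to 2.91). Both changed sign, and the new intervals, which are per base without a GC or CpG expectation, lie above 0. Without PCDHB11 the beta value was -1.35. In alpha, the start codon window and the window of -150 to 0 bp held no position and gave no value. Members against other long first exons moved from 0.00 to -0.37 with GC over 1000 bp, outside the interval. With GC and CpG the value was 0.25, inside it. Shared distances fell to 7 in beta and 6 in gamma within 10 bp, and reached 21 in gamma within 40 bp, the window itself setting the count. The other causes were not tested. No paired analysis was possible because the list does not separate the batches and there is 1 group. The unknown read depth limits all counts of 0.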
